A study of Mus musculus with 3 samples.

Results

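The Ccdc genes are the mouse genes named for a coiled-coil domain in their protein, and their contacts with the splicing regulator Tra2β were measured here in testis. Members were the protein-coding genes of GENCODE vM39 whose symbol is Ccdc followed by a number, 138 of 21770 protein-coding genes. The samples were 3 biological replicates from testes of adult wild type mice, with no other genotype, treatment or time point, and no input, IgG or Tra2β-deficient library was analysed here. Each replicate was an iCLIP library. In iCLIP, ultraviolet light links a protein to the RNA it touches, an antibody (here polyclonal, against Tra2β) recovers the complex, and the point where reverse transcription stops marks the contact to a nucleotide. In what follows each unique cDNA counts as 1 crosslink, placed at its nucleotide and strand. CPM is a count scaled to 1000000 crosslinks in the library, and density is CPM per kb of sequence. Exons, introns and exon numbers are those of the Ensembl canonical transcript.

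A coiled coil is a rod of intertwined helices built on a heptad repeat, and it is rich in charged residues, lysine and glutamate among them. Lysine codons are AAA and AAG, and glutamate codons are GAA and GAG, so such a rod is written in purines. Tra2β binds purine-rich RNA and GAA repeats above all, and it promotes the inclusion of exons that carry them. Ccdc is a naming class and not a family of common descent. Many of its members build the axoneme of cilia and sperm flagella, the centriole or the acrosome, and these are made in quantity by meiotic and post-meiotic germ cells.

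The sequences below were chosen by their crosslinks, either as exons denser than the rest of their transcript or as the window with most crosslinks in a leading gene. They are examples of how purine-rich the contacted coding sequence was, and where it was not. Not every such exon or window is printed, so they do not show how common GAA or purines were among them. Bases are from GRCm39, 5′ to 3′ on the coding strand, and capitals mark each GAA. All of them are coding sequence. The first is exon 17 of Ccdc136 (chr6:29419986-29420264, plus strand), the next is exon 12 of Ccdc88a (chr11:29406458-29406602, plus strand), both whole.
Ccdc136 exon 17: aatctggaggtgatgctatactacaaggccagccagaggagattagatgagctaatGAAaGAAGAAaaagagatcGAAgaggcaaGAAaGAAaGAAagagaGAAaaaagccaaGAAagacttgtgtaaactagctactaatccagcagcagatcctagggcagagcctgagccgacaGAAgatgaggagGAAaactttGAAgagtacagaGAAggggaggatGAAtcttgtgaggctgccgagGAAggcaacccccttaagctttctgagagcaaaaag
Ccdc88a exon 12: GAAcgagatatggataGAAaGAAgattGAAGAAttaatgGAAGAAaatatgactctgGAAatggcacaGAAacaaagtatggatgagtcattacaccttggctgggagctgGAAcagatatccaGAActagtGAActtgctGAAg
The others are the 41 nt with most crosslinks in the coding part of an exon. They come from Ccdc39 exon 7 (chr3:33886825-33886865, minus), Ccdc183 exon 11 (chr2:25499747-25499787, minus), Ccdc91 exon 11 (chr6:147493561-147493601, plus), Ccdc70 exon 2 (chr8:22463432-22463472, plus), Ccdc168 exon 4 (chr1:44112375-44112415, minus), Ccdc60 exon 6 (chr5:116301555-116301595, minus) and Ccdc38 exon 5 (chr10:93391402-93391442, plus).
Ccdc39 exon 7: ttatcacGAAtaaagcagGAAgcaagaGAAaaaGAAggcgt
Ccdc183 exon 11: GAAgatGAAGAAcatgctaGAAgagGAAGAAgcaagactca
Ccdc91 exon 11: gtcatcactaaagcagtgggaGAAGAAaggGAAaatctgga
Ccdc70 exon 2: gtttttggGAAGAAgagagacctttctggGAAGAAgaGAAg
Ccdc168 exon 4: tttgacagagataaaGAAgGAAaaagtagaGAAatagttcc
Ccdc60 exon 6: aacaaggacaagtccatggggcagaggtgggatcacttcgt
Ccdc38 exon 5: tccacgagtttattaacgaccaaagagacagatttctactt
Exon 17 of Ccdc136 held 15 GAA triplets in 279 nt, and exon 12 of Ccdc88a 13 in 145 nt. The windows of Ccdc60 and Ccdc38 held none. Purines made up 78.0% of the Ccdc183 window, 75.6% of the Ccdc39 window and 48.8% of the Ccdc38 window. Among the exons named by rule below, the windows not printed were mixed. Those of exon 7 of Ccdc91 and exon 11 of Ccdc60 held no GAA, at 63.4% and 48.8% purines. That of exon 18 of Ccdc88a held 2 GAA at 65.9%. Those of exons 15 and 11 of Ccdc178 held 4 and 6, at 73.2% and 78.0%.

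Libraries held 348033, 619571 and 488719 crosslinks in replicates 1, 2 and 3. A count of 0 allows up to 3 counts, which is 8.62, 4.84 and 6.14 CPM in the same order, and this limit covers counting error only. The labelled tissue was checked with germ cell markers. Exons of 3 spermatogonial markers held 7, 4 and 5 crosslinks. Exons of 6 spermatid markers held 363, 119 and 662 crosslinks, and exons of 5 spermatocyte markers 81, 90 and 209, against 53, 29 and 62 for 3 Sertoli cell markers and 28, 14 and 36 for 3 Leydig cell markers, and of 2 markers of blood and endothelium 1 held a single crosslink. Replicate 2 stood apart in what follows, with fewer exonic and more intronic crosslinks, so values are given for each replicate.

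Ccdc genes were contacted more than most genes. They are 0.634% of protein-coding genes and 0.625% of their exonic bases, and they held 2.76%, 2.79% and 3.01% of the exonic crosslinks in replicates 1, 2 and 3. Of the 138 genes, 71 had at least 20 exonic crosslinks over the 3 libraries, 51 had 1 to 19 and 16 had none. That is 51.4% with at least 20, against 16.6% of the 21632 other protein-coding genes. Median exon density was 4.17, 2.77 and 6.24 CPM per kb over all Ccdc genes, and 0, 0.185 and 0.184 over the others. The difference of the medians was 4.27 ± 1.73 CPM per kb (SD, n = 3). With crosslinks and bases summed over the genes, density was 4.51, 4.56 and 4.93 times that of the other genes. Without Ccdc168, which held 26.8% of the Ccdc exonic crosslinks of replicate 2, it was 4.14, 3.48 and 4.80 times. Ccdc genes were thus denser in 3 of 3 libraries on both measures. With 3 libraries of 1 group an exact sign-flip test cannot give a two-sided p below 0.25, so no test was made, and RNA levels are not analysed here, so more RNA and more binding per RNA cannot be told apart here or in any comparison between genes below.

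**Figure D1:**
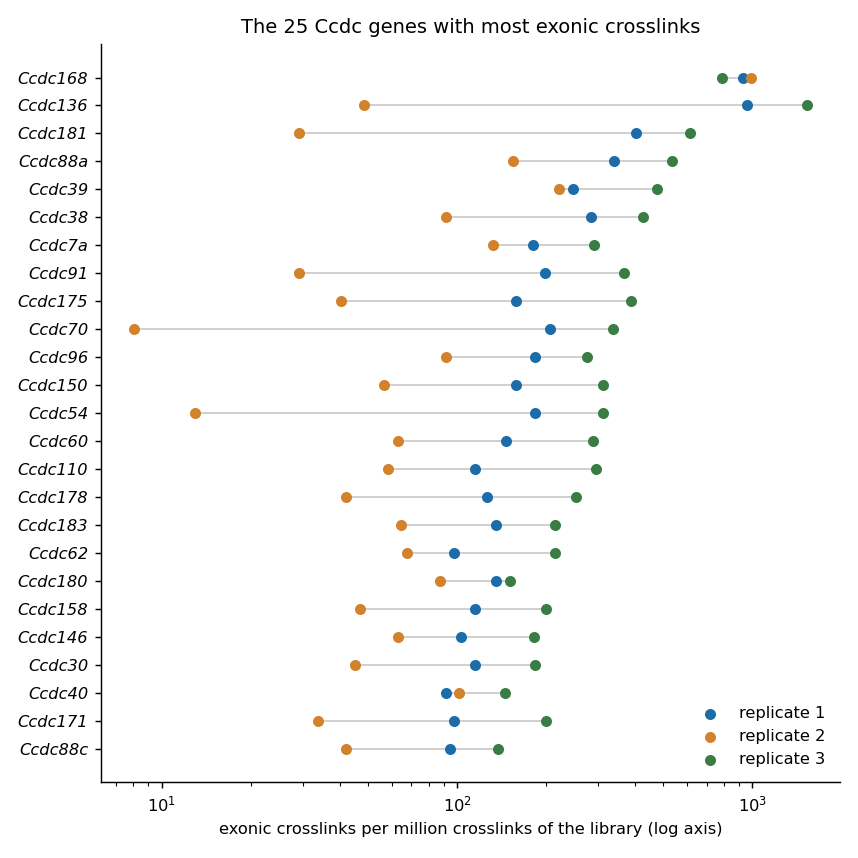
Exonic crosslinks in CPM (x axis, log scale) of the 25 Ccdc genes with the highest mean, 1 point per replicate. Ccdc168 sits between 792 and 993 CPM in all replicates, while most other genes, such as Ccdc136 and Ccdc70, are far lower in replicate 2.

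Crosslinks were concentrated in a few genes. The 10 leading genes held 51.0%, 47.1% and 48.8% of the exonic crosslinks of all Ccdc genes in replicates 1, 2 and 3. Among all protein-coding genes ranked by mean exonic CPM, 5 Ccdc genes were in the first 100 and 24 in the first 500. Ccdc168 was at rank 11 and Ccdc136 at rank 13.

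Ccdc168 (chr1:44095032-44118906) had 324, 615 and 387 exonic crosslinks, or 931, 993 and 792 CPM. Its transcript is very long at 20036 nt, and the last of its 4 exons spans 19584 nt and held 98.1%, 99.2% and 97.4% of its crosslinks. They lay all along the transcript. Of 40 stretches of 500 nt none was empty, and the count per stretch was at least 1, 6 and 3, at the median 8, 15 and 10, and at most 15, 27 and 16 in replicates 1, 2 and 3. Per kb it was therefore not among the densest genes, at 45.2 ± 5.13 CPM per kb (SD, n = 3). Its purine share was 56.7% and it carried 3.51 GAA per 100 nt.

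**Figure D2:**
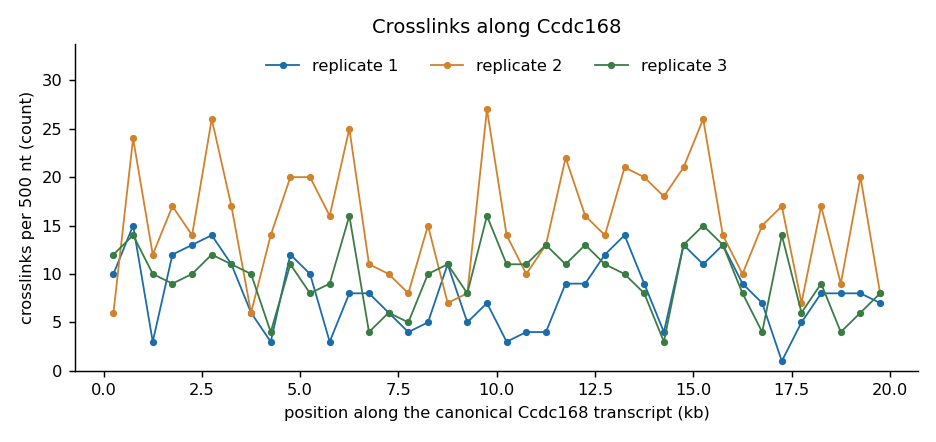
Crosslinks (count) in consecutive stretches of 500 nt along the canonical Ccdc168 transcript, 1 line per replicate. No stretch is empty, and counts stay between 1 and 27 with no place that stands out in all 3 replicates.

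Ccdc136, which is needed to form the acrosome of sperm, had 334, 30 and 748 exonic crosslinks, 960, 48.4 and 1530 CPM. It was the densest Ccdc gene, at 213 ± 188 CPM per kb (SD, n = 3), with 242 and 386 in replicates 1 and 3 but 12.2 in replicate 2. Ccdc181, a microtubule-binding protein of sperm flagella, had 141, 18 and 301 crosslinks on only 1956 nt, or 179 ± 152 CPM per kb. Ccdc70 had 72, 5 and 165 crosslinks on 1072 nt, or 172 ± 155 CPM per kb, and the highest share of lysine and glutamate codons of the 138 genes, 30.5%. Ccdc54, which has 1 exon, had 64, 8 and 152 crosslinks, or 130 ± 115 CPM per kb, with a lysine and glutamate share of 14.3%. These 4 densest genes were all low in replicate 2, and the spread between replicates was nearly as large as the mean in each.

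The next genes by density were Ccdc183, Ccdc91, Ccdc175, Ccdc38, Ccdc39 and Ccdc110, with means from 57.3 to 80.4 CPM per kb. Ccdc39, which with Ccdc40 sets the axial repeat of the axoneme, had 86, 137 and 233 crosslinks, and its partner Ccdc40 had 32, 63 and 71. Ccdc38, needed for the sperm flagellum, had 99, 57 and 208. Ccdc88a, known as girdin, a regulator of actin and of G proteins, had 118, 96 and 261 crosslinks on 10419 nt. Ccdc7a had 63, 82 and 142 crosslinks, Ccdc91, a Golgi protein that binds GGA adaptors, 69, 18 and 180, and Ccdc175 had 55, 25 and 190. Canonical transcripts of Ccdc7a and its neighbour Ccdc7b share 350 stretches of 31 nt, 6.38% of those of Ccdc7a and 20.3% of those of Ccdc7b, so their counts are uncertain by as much as reads were placed between them. The one other pair of members sharing over 1% was Ccdc121rt2 and Ccdc121rt3.

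The drop in replicate 2 was uneven. Over the 71 genes with at least 20 crosslinks, the median log2 ratio of CPM in replicate 2 to the mean of replicates 1 and 3 was -1.61, against -1.22 over 3601 other genes, and 11 of the 71 Ccdc genes were above 0. Ccdc70 was lowest of the genes named here at -5.08, Ccdc136 was at -4.68 and Ccdc54 at -4.26. Ccdc168 was at 0.20, and Ccdc9, a partner of the exon junction complex, at 0.75 with 13, 29 and 9 crosslinks. Spearman's rho of counts across the 71 genes was 0.893 between replicates 1 and 3, 0.607 between 1 and 2, and 0.517 between 2 and 3. Genes are not independent replicates, and the labels give no batch. A cause of the difference was not tested.

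Ccdc genes were richer in purines and in lysine and glutamate codons than the rest. The median purine share of exonic bases was 54.3% (quartiles 51.7% and 56.9%) against 50.4% (48.7% and 52.1%), and in coding sequence alone 58.4% against 51.7%. Lysine and glutamate together made up 19.4% of codons at the median (15.4% and 22.8%) against 11.8% (8.87% and 14.9%). GAA occurred 2.54 times per 100 exonic nt against 1.98. Of the 138 genes, 99 were in the highest of 5 equal groups of protein-coding genes by lysine and glutamate codons, above 15.8%. Within that group Ccdc genes held more crosslinks per kb than other genes. Summed over the 99 genes it was 21.0, 10.1 and 32.8 CPM per kb, against 8.47, 3.48 and 13.4 over 4255 others. The sets were not matched in composition inside this group, with a median purine share of 55.5% against 52.9%. In the next group, from 13.0% to 15.8%, 25 Ccdc genes held 4.05, 1.23 and 5.84 CPM per kb against 3.98, 1.96 and 5.41 for 4324 others, lower than the others in replicate 2 and close to them in replicates 1 and 3. The lower groups held few Ccdc genes. From 8.13% to 10.8%, 3 Ccdc genes were above the others in every library, at 6.26, 5.98 and 6.69 against 1.62, 0.963 and 1.85. The 8 from 10.8% to 13.0% and the 3 under 8.13% were above the others in some libraries and below in the rest.

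**Figure D3:**
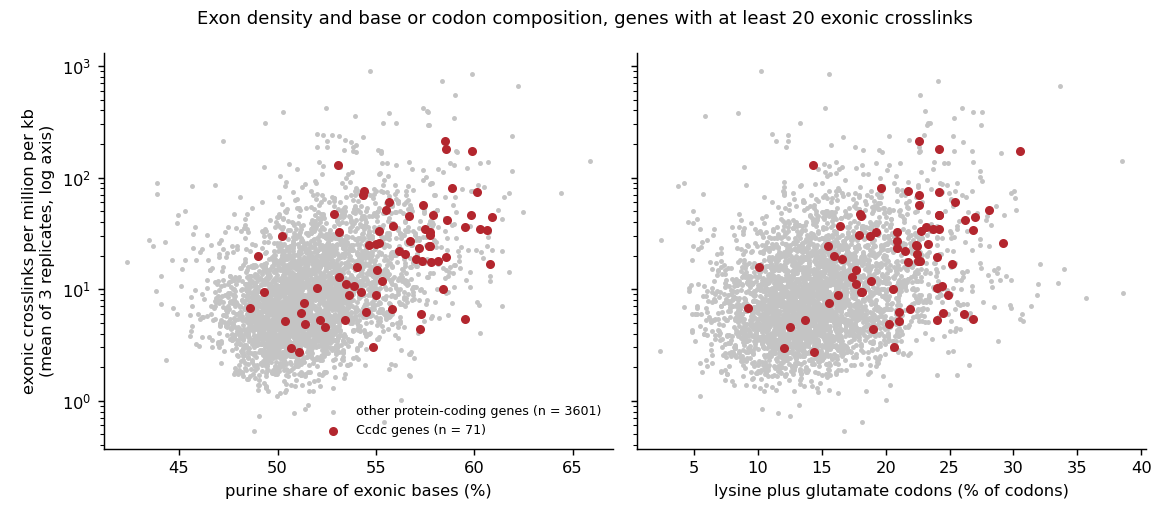
Mean exon density over 3 replicates (y axis, CPM per kb, log scale) against the purine share of exonic bases (left, %) and the share of lysine and glutamate codons (right, %), for genes with at least 20 exonic crosslinks. Red points are 71 Ccdc genes and grey points 3601 other protein-coding genes, and the red points lie mostly to the right, inside a broad cloud in which density is higher at higher purine share.

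Among the Ccdc genes, density went with purine share. Over the 71 genes with at least 20 crosslinks, Spearman's rho of exon density with purine share was 0.454, 0.342 and 0.509 in replicates 1, 2 and 3, and over 3601 other genes 0.308, 0.304 and 0.396. With GAA per 100 nt it was 0.420, 0.315 and 0.501. With the lysine and glutamate codon share it was lower, 0.350, 0.127 and 0.339, although that share and the purine share go together over the 138 genes (rho 0.639). These are descriptions across genes, which share a library and its depth, and carry no test. With coding sequence alone on both sides the mean rho was 0.204, under the 0.435 of whole exons.

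The genes at the ends of the codon scale show how loose the relation was. Among the 71 genes, Ccdc70, Ccdc34, Ccdc96, Ccdc83 and Ccdc18 had the highest lysine and glutamate shares, from 26.9% to 30.5%. Ccdc70 was very dense, and Ccdc96, an axonemal partner of Ccdc113, had 51.3 ± 25.7 CPM per kb, but Ccdc18 had 5.40 ± 2.82 (SD, n = 3). Ccdc116, Ccdc188, Ccdc187, Ccdc157 and Ccdc33 had the lowest, from 9.24% to 13.7%. Their densities were 6.80 ± 2.32 for Ccdc116, 15.6 ± 5.04 for Ccdc188 and from 2.95 to 5.32 for the rest. Ccdc188, which holds the sperm head to the tail, thus had a higher mean density than Ccdc18 at the other end of the scale.

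GAA was more frequent around the contacts than in the transcript as a whole. In exons of Ccdc genes, 30 nt upstream of the crosslink had 1.28, 1.301 and 1.23 times the transcript's own share of bases in GAA triplets, and 30 nt downstream 1.29, 1.62 and 1.19 times. Farther off, at 41 to 60 nt downstream, it was 1.18, 1.19 and 1.07 times, so part of the excess was not local. The transcript's own share includes untranslated sequence. The crosslinked nucleotide itself had 0.938, 0.945 and 1.06 times, and in other genes 1.06, 1.04 and 1.16 times. In replicate 2 the ratio reached 2.14 at 8 nt downstream, while replicates 1 and 3 had their highest values upstream, 1.55 at -6 nt and 1.40 at -5 nt. Other protein-coding genes had 1.32, 1.78 and 1.26 times downstream, with a maximum of 2.23 at 7 nt in replicate 2. The downstream maximum of replicate 2 was thus seen in both sets of genes. Uracil (T in the genome) was crosslinked most often, 38.0%, 35.4% and 37.5% of exonic crosslinks in Ccdc genes against 21.9%, 22.7% and 21.8% of the bases, and both A and C were crosslinked less often than their share. A made up 18.4%, 24.8% and 19.4% of crosslinks against 31.6%, 32.6% and 31.6% of the bases, and C 12.8%, 14.2% and 12.8% against 21.7%, 21.3% and 21.6%. Ultraviolet light is known to link uracil most readily, and its part in this result was not tested.

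**Figure D4:**
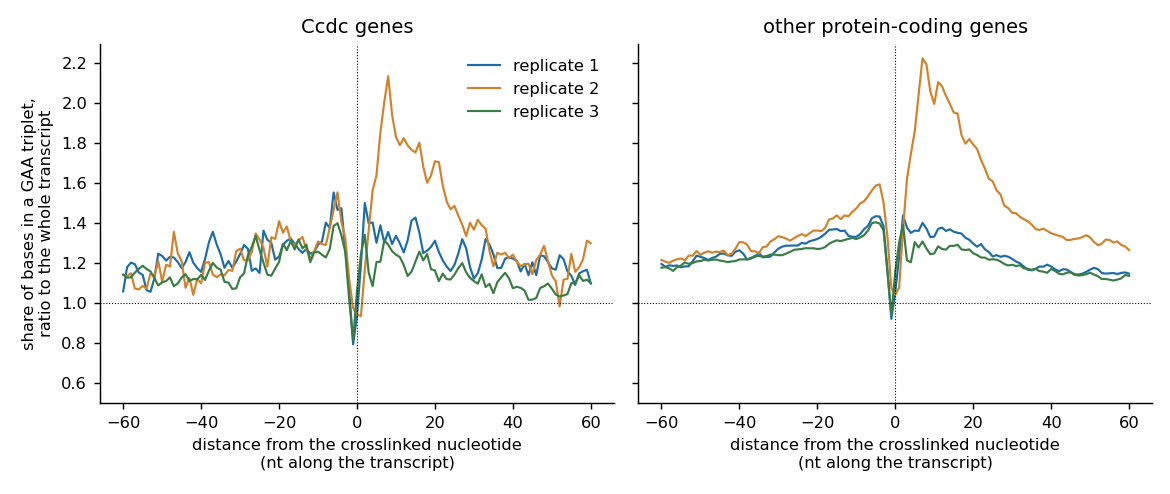
Share of bases lying in a GAA triplet at each distance from the crosslinked nucleotide (x axis, nt along the transcript), as a ratio to the share over the whole transcript (y axis), for Ccdc genes (left) and other protein-coding genes (right), 1 line per replicate. Lines dip next to the crosslink and are higher on both sides of it, and replicate 2 peaks downstream, at 2.14 in Ccdc genes and 2.23 in the others.

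The crosslinked nucleotide did not lie in lysine or glutamate codons more often than codon content gives. Of coding crosslinks in Ccdc genes, 19.4%, 19.0% and 19.0% lay in such codons, and 21.8%, 20.7% and 22.1% would by the content of each gene. The ratio was 0.889 ± 0.0278 (SD, n = 3), below 1 in 3 of 3 libraries. In other genes it was 0.954 ± 0.0505, with 1.01 in replicate 2. These codons hold only A and G, while T was the base crosslinked most often. The ratio therefore cannot show whether Tra2β favoured or avoided such codons. Purines at the crosslinked nucleotide of Ccdc genes were at 0.873, 0.896 and 0.876 times the transcript's own share.

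Coding sequence carried most crosslinks. It is 53.8% of the exonic bases of Ccdc genes and held 86.1%, 92.6% and 85.7% of their exonic crosslinks in replicates 1, 2 and 3. Density was 25.7, 13.4 and 39.4 CPM per kb in coding sequence, 8.15, 1.76 and 14.6 in 5′ UTRs, and 4.16, 1.15 and 6.24 in 3′ UTRs, an order kept in all 3 libraries. The coding density was 5.33, 10.7 and 5.17 times that of untranslated sequence, against 3.52, 4.88 and 3.88 times in other genes. It was higher in Ccdc genes in 3 of 3 libraries.

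To ask whether contacts followed purines within a transcript, exons were divided into tiles of 60 nt and the tiles of each gene split at its own median purine share. Summed over all Ccdc genes, purine-rich tiles held 1517, 1516 and 3143 crosslinks and purine-poor tiles 962, 627 and 2192, on almost equal lengths. The log2 ratio of densities was 0.65, 1.27 and 0.51, a mean of 0.81 ± 0.40 (SD, n = 3), and 0.50, 1.16 and 0.46 in other genes. The ratio was above 0 in 3 of 3 libraries in both sets. With coding sequence alone it was 0.34, 0.82 and 0.13 in Ccdc genes and 0.36, 0.92 and 0.27 in other genes, so the order of the sets turned in 3 of 3 libraries. With tiles split by GAA it was 1.08, 1.45 and 0.90 in Ccdc genes and 0.80, 1.45 and 0.76 in the others. Over whole exons split by purines, Cfap genes, of cilia and flagella, had 0.81, 1.59 and 0.67. Cep genes, of the centrosome, had 0.96, 1.65 and 0.87, so both of these classes were above the Ccdc genes in every library.

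Gene by gene, few members were called. The edgeR quasi-likelihood test called 1 of 71 genes (1.41%), Ccdc96, against 1.96% of all 3672 genes tested, a share near the background. No Ccdc gene was called in the other direction, with 1 at an unadjusted p under 0.05. The fitted log2 ratio was above 0 in 63 of the 71 genes (88.7%) and in 81.1% of the others, with medians of 0.72 and 0.62. Ccdc96 had 47, 46 and 77 crosslinks in purine-rich and 8, 5 and 25 in purine-poor tiles, groups that do not overlap, with a log2 ratio of 2.51 (SE 0.43, edgeR adjusted p = 0.0145). With 1 replicate left out the log2 ratio was 2.47, 2.13 and 3.04, and edgeR called none of the 3672 genes in any of these fits. With coding sequence alone the log2 ratio of Ccdc96 was 0.44 and not called (edgeR adjusted p = 0.589). Ccdc82 (2.47), Ccdc25 (2.19), Ccdc7b (2.07) and Ccdc198 (2.04) followed in log2 ratio, with edgeR adjusted p from 0.0644 to 0.0937. At the other end Ccdc200 had a log2 ratio of -1.73 on 6 and 21 crosslinks, and Ccdc187, Ccdc188, Ccdc158 and Ccdc185 were between -0.53 and -0.13 with edgeR adjusted p of at least 0.598. With tiles split by GAA, 7 of 71 genes (9.86%) were called, against 5.59% of all genes tested.

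Exons were denser than introns in most members that could be tested. The edgeR test called 64 of 79 genes (81.0%) higher in exons and none lower, with 0 lower also at an unadjusted p under 0.05 and in DESeq2, against 71.8% of 6907 genes called higher. The median log2 ratio of exon over intron density was 3.52, and 2.44 in other genes. In sums, 55.6%, 35.9% and 69.6% of crosslinks in Ccdc genes were exonic, against 42.9%, 26.7% and 55.3% in other genes. The log2 ratio was 7.80 for Ccdc70 (SE 0.92, edgeR adjusted p = 4.56e-06), with 2 intronic crosslinks in all, 6.75 for Ccdc181 and 4.95 for Ccdc168, a call that was lost without replicate 1 (edgeR adjusted p = 0.0539). The 15 genes not called had log2 ratios from -0.10 (Ccdc170) to 1.61 (Ccdc134). Among them were Ccdc82 and Ccdc14, a centriolar satellite protein.

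Next, each internal coding exon was compared with the rest of its transcript. Ccdc genes have 1221 such exons, of which 59 in 19 genes had at least 20 crosslinks and 385 had none. Of the 59, edgeR called 21 higher (35.6%), against 49.4% of all 1560 such exons, and none lower, with 0 lower also at an unadjusted p under 0.05 and in DESeq2. The 21 became 7 without replicate 1, 9 without replicate 3 and 5 by the exact binomial test, and without replicate 2 there were 30 higher and 1 lower. A short exon could only reach 20 crosslinks by being dense, so these counts support nothing by themselves. With exons admitted instead by at least 10 crosslinks expected from their length, 8 of 114 (7.02%) were called higher and 4 (3.51%) lower, against 14.2% and 3.56% of 2471. The 8 had a median purine share of 66.7% and 5.95 GAA per 100 nt, the 102 exons not called 59.7% and 4.07, and the 4 lower exons 58.3% and 2.53.

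Exon 17 of Ccdc136, printed above, had the largest fold of the exons named. It held 109, 13 and 168 crosslinks, 32.6%, 43.3% and 22.5% of those of its gene on 279 of 3966 nt. The log2 fold over the rest of the transcript was 2.50 (SE 0.35, edgeR adjusted p = 3.15e-05), and it was called under every alternative it entered. Within it, 130 of the 279 nt were crosslinked in some library and 5 in all 3. Over exons of all Ccdc genes only 19 of 9482 crosslinked positions (0.200%) were seen in all 3 libraries, 7 of them in Ccdc136.

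Of the 10 exons named by rule, 4 had at least 10 crosslinks expected from their length, and all 4 were called when exons were admitted that way. The 10 were chosen among exons already called on the same counts, so there is no independent support in the calls of these 4. Besides exon 17 of Ccdc136 these were exon 7 of Ccdc39, with 9, 25 and 18 crosslinks (log2 fold 1.79, SE 0.36, edgeR adjusted p = 0.000288), exon 15 of Ccdc178, with 6, 6 and 17 (1.66, edgeR adjusted p = 0.00412), and exon 11 of Ccdc91, with 13, 4 and 29 (1.59, edgeR adjusted p = 0.00399). Exon 11 of Ccdc91 was lost against internal coding exons alone (edgeR adjusted p = 0.163). Exon 15 of Ccdc88a, 1071 nt long, held 25, 29 and 40 crosslinks (1.23, edgeR adjusted p = 0.00456) and was lost there too (0.467).

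The other 6 named exons entered the test only through their own high counts, so their values are a description. Exon 12 of Ccdc88a held 8, 5 and 17 crosslinks on 145 nt where its length would give 6.61 in all, and exon 6 of Ccdc60, whose densest window has no GAA, held 4, 6 and 10 where it would give 5.91. The rest were exon 7 of Ccdc91, exon 18 of Ccdc88a, exon 11 of Ccdc178 and exon 11 of Ccdc60, with 7.52 to 8.20 expected and 21 to 23 found. Exon 5 of Ccdc39 was chosen after its values were seen and was admitted in the same way, with 2, 21 and 12 crosslinks where 8.09 were expected. It held 15.3% of the crosslinks of its gene in replicate 2 and 2.33% in replicate 1.

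**Figure D5:**
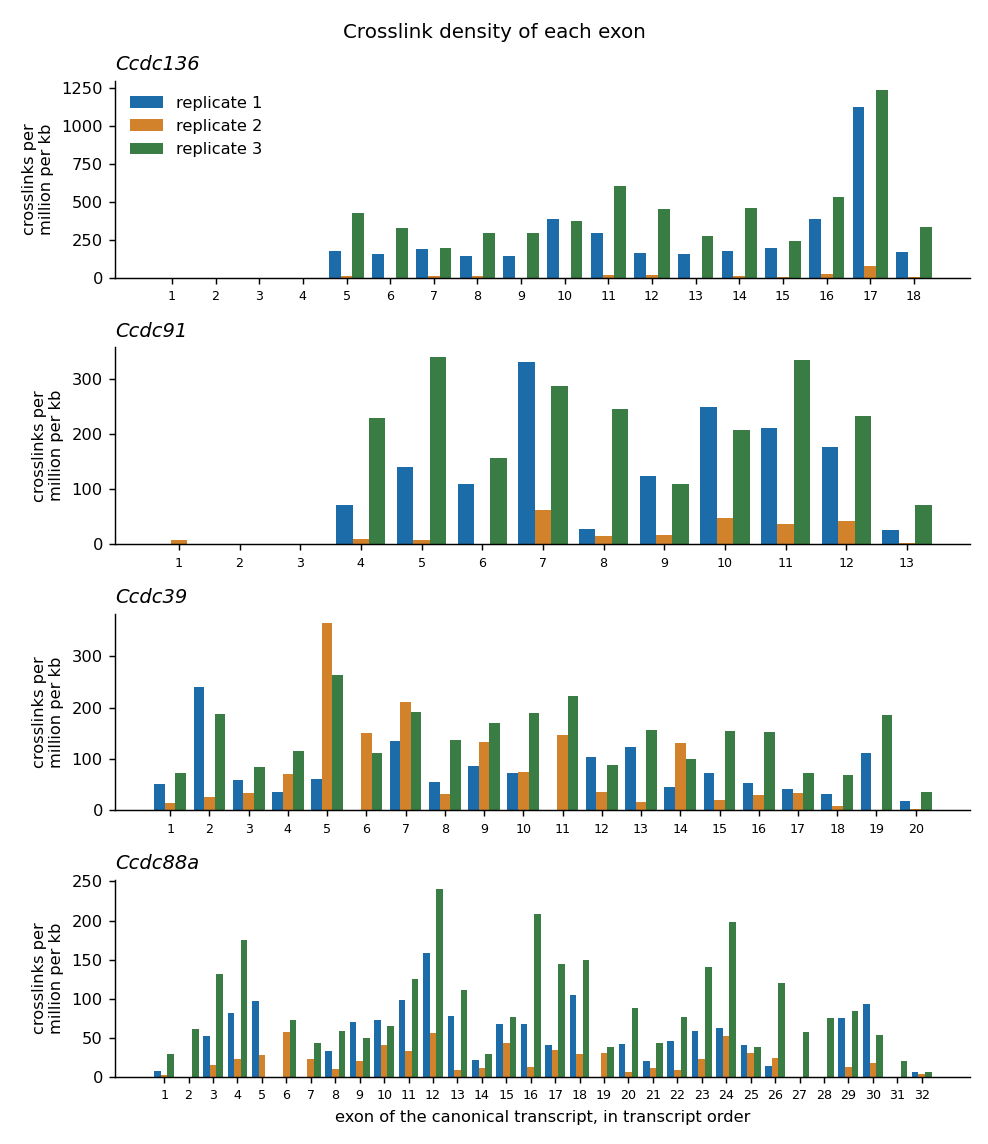
Crosslink density (y axis, CPM per kb) of each exon of the canonical transcript (x axis, exon number in transcript order) in Ccdc136, Ccdc91, Ccdc39 and Ccdc88a, bars per replicate. Exon 17 stands above the other exons of Ccdc136 in all replicates, and exons 1 to 4 of Ccdc136 and 1 to 3 of Ccdc91 are at or near 0.

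The exons called lower were exons 2, 3 and 4 of Ccdc136 and exon 2 of Ccdc7b. Exon 2 of Ccdc7b, 324 nt long, held 1, 0 and 7 crosslinks. Ccdc7a, which shares sequence with Ccdc7b, has an exon of the same length, exon 3, with 1, 0 and 5. How reads matching both genes were handled is not given, and its part in this call was not tested. The first 4 exons of Ccdc136 held no crosslink in any library, on 600 nt, while exons 5 to 18 held all 1112. Exons 2 to 4 are coding, and their density was at least 47.6-fold lower than that of exons 5 to 18, with 3 counts over the 3 libraries as the floor. Exon 3 had a purine share of 66.3% and 3.21 GAA per 100 nt. In the intron after exon 4, an annotated exon of 157 nt (chr6:29402868-29403024) held 4, 0 and 6 crosslinks. It is the first exon of another protein-coding transcript of the gene, which lacks exons 1 to 4 of the canonical one.

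A similar arrangement was seen in Ccdc91 and Ccdc30, a comparison chosen after its values were seen. Exons 1 to 3 of Ccdc91 held 1 crosslink on 323 nt, where an even spread over the transcript would put 32.8, and an annotated first exon of another transcript behind them (chr6:147432899-147433044) held 10, 1 and 22 crosslinks on 146 nt. Unlike that of Ccdc136, this other transcript has no defined coding sequence. Exon 1 of Ccdc91, 200 nt, is untranslated. Untranslated sequence was less dense than coding sequence, which an even spread ignores here and below. Exon 1 of Ccdc30 held none on 613 nt, where an even spread would put 20.9. In the introns of Ccdc30, 3 annotated exons outside the canonical transcript held 7, 3 and 14, 7, 0 and 16, and 5, 1 and 8 crosslinks. The last of these (chr4:119240868-119241031) is the first exon in 12 of the 13 transcripts that hold it. Of 41 members with over 1 exon and at least 50 crosslinks, 8 had leading exons with at most 1 crosslink where an even spread would put at least 10 (19.5%), and so did 92 of 1530 other protein-coding genes chosen the same way (6.01%), with no test of the difference. The other members were Ccdc92, Ccdc7a, Ccdc7b, Ccdc6 and Ccdc40. Among them Ccdc7a and Ccdc7b share sequence, so their low counts carry the limit on read placement given above. Which transcripts of these genes the adult testis holds is not analysed here, and its part in these counts was not tested.

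Introns of Ccdc genes held 2135, 4110 and 2517 crosslinks. Annotated exons of other transcripts that lie in them made up 1.12% of their bases and held 3.93%, 2.04% and 5.68% of these crosslinks. The densest intronic stretch of 100 nt, in Ccdc170 (chr10:4434229-4434328), held 2, 87 and 0 crosslinks, and 95 of its bases belong to Gm22739, a small nuclear RNA gene on the same strand. A stretch in Ccdc82 (chr9:13275821-13275920) with 8, 45 and 5 crosslinks overlaps another, Gm26189, over 86 bases. Both were high in replicate 2 alone, and in Ccdc170 this stretch was most of the intronic count of that library, 87 of 113. Ccdc60 had 92, 429 and 121 intronic crosslinks and its densest stretch (chr5:116277754-116277853) held 1, 14 and 2.

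By role, the lists of axonemal and sperm members had the highest summed densities of the lists made. The lists were chosen with earlier results of these data known. Of 13 listed genes of cilia and flagella, 11 had at least 20 exonic crosslinks. By edgeR 10 of 10 tested were called denser in exons than introns. Their summed density was 37.6, 17.1 and 61.6 CPM per kb, with Ccdc181 highest. In 13 genes of sperm and meiosis the same figures were 11, 8 of 11, and 38.6, 10.9 and 62.8, with Ccdc136 highest. The same test called 81.0% of all tested Ccdc genes and 71.8% of all genes tested. Ccdc136 alone held 334, 30 and 748 of the 611, 307 and 1398 exonic crosslinks of the sperm list. The ciliary and sperm lists were above the density of all Ccdc genes together, which include them, 16.1, 7.76 and 24.7, in 3 of 3 libraries. Of 10 genes of the commander complex and vesicle traffic 5 had at least 20 crosslinks, at 13.98, 4.88 and 21.7 CPM per kb, led by Ccdc88a.

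The other lists were sparse. Of 12 centrosome genes 6 had at least 20 crosslinks, at 3.73, 3.46 and 8.89 CPM per kb, led by Ccdc92, and Ccdc78, Ccdc68 and Ccdc120 had none. Of 8 genes of splicing and nuclear RNA only Ccdc9 and Ccdc174 reached 20, although the median lysine and glutamate share of the list, 22.9%, was close to the 23.3% of the ciliary list. The 3 mitochondrial genes held 8, 1 and 7 crosslinks in all, and 4 secreted ones 4, 8 and 8. RNA levels are not analysed here, so less RNA and less contact cannot be told apart for these lists.

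Other naming classes with related roles gave summed densities close by but higher medians. Cfap genes, of cilia and flagella, had 32 of 48 members with at least 20 crosslinks and summed densities of 19.8, 11.4 and 30.8 CPM per kb. Cep genes, of the centrosome, had 32 of 39 and 16.5, 6.06 and 26.02. Ccdc genes, at 16.1, 7.76 and 24.7, were below the Cfap genes in every library and on either side of the Cep genes. Median density was 10.8, 5.74 and 15.7 CPM per kb in Cfap genes and 8.31, 4.63 and 12.5 in Cep genes. Ccdc genes were below both in every library, at 4.17, 2.77 and 6.24, with 51.4% reaching 20 crosslinks against 66.7% and 82.1%. Their lysine and glutamate share, 19.4% at the median, was near the 18.9% of Cep genes and above the 16.8% of Cfap genes.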

How the data were processed

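Tra2β iCLIP was carried out on germ cells released by mincing testes of adult wild type mice, in 3 replicates. The deposited files hold counts of unique cDNAs per crosslinked nucleotide and strand, made by the authors with the iMAPS pipeline and not normalised. The submitters' processing notes name Trim Galore 0.6.7, Bowtie 1.3.1, STAR 2.7.9a and UMI-tools 1.1.2, and the build mm39 (GRCm39). How multi-mapping reads were handled is not given in the sources used here. All positions fitted GRCm39.

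Counts were summed by strand over exons and introns of Ensembl canonical transcripts (GENCODE vM39) with Python 3.11.15. Densities were crosslinks per kb, scaled to 1000000 crosslinks in the library (348033 to 619571 were present, and limits at 0 cover counting error only). Exon over intron, purine-rich over purine-poor tiles of 60 nt, and an internal coding exon over the rest of its transcript were compared with edgeR 4.0.16 (quasi-likelihood, library as block, length and depth as offset) over all genes or exons with at least 20 crosslinks, with Benjamini-Hochberg adjustment and a threshold of 0.05, and tested first on simulated data. DESeq2 1.42.0, exact binomial tests, other minimums, tile sizes and reference regions were alternatives. P-values of edgeR and DESeq2 measure the spread between libraries. Those of the exact binomial tests, made in each library, measure counting error only.

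The ratio of median densities that had been planned could not be had, since the median of other genes is 0 in replicate 1, and the difference of medians was used. Genes named were the 10 with the highest exonic CPM, the 10 densest, the 10 exons with the largest fold among those called with 3 crosslinks in each library, and the 5 at each end of the lysine and glutamate share and of the tile ratio. Members and lists were chosen with earlier results of these data known. Of the listed symbols, 12 are not in this annotation under that name.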

Additional observations from a re-analysis of the deposited data

Results flagged for a closer look

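Crosslinks on the strand opposite to exons of Ccdc genes were not used in any comparison. Over bases with no annotated exon on that strand, there were 21, 42 and 18 such crosslinks in replicates 1, 2 and 3, each above the 3 counts that a count of 0 allows, on 438 kb. That is 0.0479, 0.0959 and 0.0411 per kb, against 5.59, 4.81 and 12.1 per kb on the coding strand. Replicate 2 had the highest antisense count, and its source was not tested.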

How the results depend on the processing

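Ccdc genes called denser in exons than introns were 64 of 79 (4956 of 6907 over all genes). The lowest count under an alternative was 48 of 79 without replicate 3 (2212 of 6907). The highest was 70 of 118 with no minimum (5433 of 15882). The count of Ccdc genes called for purine-rich tiles, 1, moved together with the count over all genes, 72 of 3672. It was 0 without any single replicate (edgeR, 0 of all 3672 genes, with 10, 19 and 6 Ccdc genes higher at an unadjusted p under 0.05), 0 at a minimum of 10 (0 of 5814 in all, 21 Ccdc genes unadjusted), 0 with tiles of 30 nt (3 of 3672, 11 unadjusted) and 0 in coding sequence alone (1 of 2782, 7 unadjusted). It was 4 with positions counted once (103 of 3638), 8 outside exons of other genes (151 of 3539), 13 at a minimum of 50 (311 of 1615), 3 by the exact binomial test (73 of 3672), 6 by DESeq2 (121 of 3672), 14 with tiles of 120 nt (450 of 3670) and 7 with tiles split by GAA (200 of 3575). Fewer genes were tested at a minimum of 50, and other causes were not tested. The Ccdc exons called were 21 of 59 (771 of 1560 over all genes). Without replicates 1, 2 and 3 in turn they were 7, 30 and 9 (397, 899 and 397 over all genes). They were 57 of 186 at a minimum of 10 (1710 of 4538) and 3 of 11 at 50 (216 of 340). The exact binomial test called 5 of 59 (230 of 1560). Against internal coding exons 8 of 59 were called (305 of 1538), and 8 of 114 when admitted by expected crosslinks (351 of 2471). The difference in median density, 4.27 CPM per kb, became 16.6 when scaled to exonic crosslinks, 11.3 over genes with at least 20 and 6.53 in coding sequence, and rho with purine share, 0.435, became 0.204 in coding sequence and 0.272 with the lysine and glutamate share. It kept its sign everywhere.

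Of 348 values of named genes and exons under alternatives, 298 kept direction and call, 26 lost a call, 9 gained one and 15 changed sign, all 15 in tile ratios that were below 0 and not called. With tiles of 120 nt the log2 ratio became 0.45 for Ccdc200, 0.50 for Ccdc187, 0.074 for Ccdc188 and 0.093 for Ccdc185. With tiles of 30 nt it became 0.63 for Ccdc188, 0.20 for Ccdc158 and 0.061 for Ccdc185. Split by GAA it became 0.52, 0.57 and 0.98 for the same 3 genes. In coding sequence it became 0.18 for Ccdc187 and 0.34 for Ccdc158. When a replicate was left out it ranged from -0.82 to 0.50 for Ccdc188, above 0 without replicate 2 and without replicate 3 (0.081), and from -0.46 to 0.41 for Ccdc185, above 0 without replicate 3. All 3 tests pair the regions within each library, and with 1 group of samples there was no pairing between groups to try.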
